A study of Homo sapiens with 18 samples.

Results

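The cytosolic ribosomal protein genes are described here across knockdown experiments in 786-O cells. Members were chosen by gene symbol: protein-coding RPL and RPS genes together with RPSA, RPLP0, RPLP1 and RPLP2, without Y-linked genes and without the RPS6K kinases. The rule found 84 genes among the 27105 genes of the transcript tables, 52 for the large subunit and 32 for the small subunit. Of these, 80 passed the filter on low counts and were tested in both experiments.

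The study measured total RNA from 786-O, an established cell line from a kidney clear cell carcinoma, without working VHL, with poly(A)-type libraries whose kit does not mark strand. Each of the 18 libraries carried a short hairpin RNA. Hairpins sh50 and sh52 target USP13, a deubiquitinase, and were set against a control hairpin (shCtrl) of the USP13 experiment. Hairpins sh43 and sh45 target ZHX2, a transcription factor stabilised when VHL is lost, and had a control hairpin of their own in the ZHX2 experiment. Every group held 3 libraries of the same line. The labels do not say whether these came from separate cultures, so the p-values cover the spread among these libraries, which may be technical. The protocol describes doxycycline-inducible vectors for USP13 hairpins but does not say whether the drug was given to these libraries. It also lists hairpins 43 and 45 under USP13, whereas the sample titles assign both to ZHX2, so the target genes were examined first.

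Levels are given in CPM, counts scaled to library size with trimmed mean of M values (TMM) factors, unless TPM, which also divides by transcript length, is named. ZHX2 stood at 340.3, 344.2 and 343.9 CPM in the ZHX2 controls, at 38.6, 43.4 and 38.6 CPM under sh43, and at 90.8, 82.1 and 79.6 CPM under sh45. It fell in both groups, by 3.09 ± 0.06 (SE, log2) under sh43 and by 2.03 under sh45 (edgeR quasi-likelihood test, adjusted p = 4.5e-24 and 1.2e-20). USP13 stood at 36.9, 34.7 and 31.8 CPM in its controls, at 16.8, 17.1 and 20.5 CPM under sh50, and at 14.8, 18.1 and 17.9 CPM under sh52. It fell by 0.92 ± 0.11 and 1.03 ± 0.11 (SE, log2), so the titles and the target levels name the same gene for each hairpin.

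Libraries held between 11192561 and 16511290 estimated counts. The kidney carcinoma markers PAX8 (342 to 549 CPM) and VIM (2601 to 3901 CPM) were present in every library, while CA9 did not exceed 0.86 CPM. The leukocyte marker PTPRC did not exceed 0.16 CPM, and 8 of 10 leukocyte, 7 of 8 endothelial and 4 of 7 fibroblast markers stayed under 1 CPM in all libraries. Of the remaining leukocyte markers, CD68 stood at 16.7 to 60.4 CPM and CD14 reached 1.66 CPM. The endothelial marker ESAM reached 3.76 CPM, and the fibroblast markers PDGFRB, COL1A1 and LUM reached 2.14, 3.90 and 5.53 CPM. One library stood apart in the number of genes detected: sh52 replicate 1 had 15496, against 15874 or more in the others.

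Each cytosolic ribosome is built from ribosomal RNA and one copy of most of these proteins, so the proteins are made in matched amounts. Their mRNAs begin with a cytosine followed by a run of pyrimidines, the terminal oligopyrimidine (TOP) tract, through which mTORC1 and LARP1 control their translation and stability. Proteins left without a ribosome are degraded, and free RPL5 and RPL11, bound to 5S ribosomal RNA, restrain MDM2 and so raise p53. A few genes have expressed paralogs, such as RPL22L1, whose product can take the place of RPL22.

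The sequence that marks the family is at the transcription start. Sequences below are the 10 bases before and the 15 bases from a start in the RefSeq promoter table (GRCh38.p14, not the build of the counts), read on the strand of the gene. Capitals mark a C with at least 4 further C or T, beginning at the start. The first 4 are large-subunit and small-subunit mRNAs with large changes, followed by 3 genes each beside a paralog, and by the paralog RPL7L1 alone.
RPL36A, chrX:101391001-101391025, plus strand: ctcgcggtttCTTTCTTTCCgcgcc
RPL28, chr19:55385922-55385946, plus strand: cctcgccttcCTCTTTCCgtctcag
RPS18, chr6:33272065-33272089, plus strand: cacttccgctCTCTCTTCCacagga
RPL12, chr9:127451392-127451416, minus strand: cgatttccggCCTCTCggctttcgg
RPL22, chr1:6199581-6199605, minus strand: cgctcacctcCCTTTCTaactccgc
RPL22L1, chr3:170870181-170870205, minus strand: ccgtagcttcCTCTCTgctctcgcg
RPL26, chr17:8383179-8383203, minus strand: gcgtgtagttCTCTTCCCTTTTgcg
RPL26L1, chr5:172958719-172958743, plus strand: tccaggggtcggcgaacgaaacgcg
RPS27, chr1:153990752-153990776, plus strand: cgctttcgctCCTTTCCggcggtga
RPS27L, chr15:63157463-63157487, minus strand: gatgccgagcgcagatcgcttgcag
RPL7L1, chr6:42879606-42879630, plus strand: gtgcggcgccgtagctaggagcgga

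The table held 67 of the 84 members, and 47 of them (70.1%) carried the tract at a listed start, against 5.14% of all 27305 genes in the table. Allowing the tract to begin within 5 bases of the start gave 80.6% of members and 25.2% of all genes. RPL22L1 was the paralog with a tract at its start among those printed, and the starts of RPL26L1, RPS27L and RPL7L1 showed none. The absence was not limited to paralogs. RPL10A, RPS26 and RPS28, with large changes but not printed, had no tract beginning at their listed start. In RPL10A and RPS28, however, a tract began within 5 bases after that start. None began within 5 bases of the listed start of RPS26 or of the printed starts of RPL26L1, RPS27L and RPL7L1. RPL26L1 has 2 listed starts, of which 1 is printed. The 6-base motif CCGGAA, searched on both strands of the promoter window from 250 bases before to 50 bases after the start, occurred in 58.2% of members and in 20.1% of all genes. TATAAA, searched the same way, occurred in 10.4% and 14% of them. A match describes letters in a window and not a bound site.

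Levels per length spanned a wide range among the 80 tested members. RPS27 had the highest mean over all libraries, 10527 TPM, followed by RPLP1 (9163 TPM), RPL35 (8009 TPM), RPL37A (7875 TPM) and RPS28 (7446 TPM). The lowest were RPL22L1 (29.8 TPM), RPL7L1 (44.5 TPM) and RPL26L1 (116 TPM), all paralogs, then RPS23 (188 TPM) and RPL27A (240.3 TPM). RPS23 and RPL27A were quantified on transcripts of 3314 and 4879 bases in the tables, against a 418-base transcript for RPL37A, and a TPM value divides by that length. Among the members that were not tested, RPL10L and RPL39L were listed at 0 in all libraries, and RPL3L had at most 2 counts in a library.

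Together the members took up 4.68%, 4.87% and 5.10% of all counts in the USP13 controls. Under sh50 they took up 5.94%, 5.78% and 5.49%, above every control library, and under sh52 4.87%, 4.98% and 4.97%, inside the control range. In the ZHX2 controls they took up 5.44%, 5.90% and 5.49%. Under sh43 the share was 5.57%, 5.47% and 5.76%, again inside the control range, and under sh45 it was 7.10%, 7.20% and 7.51%. The sh45 libraries therefore held the highest shares of the 18, and sh50 and sh45 were the groups that did not overlap their controls. In bulk samples, fewer cells of a type and less RNA per cell cannot be told apart.

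Mitochondrial ribosomal RNA was also higher in every hairpin library than in the controls of its experiment. It made up 2.62% ± 0.078 (SD, n = 3) of counts in the USP13 controls, 4.26% ± 0.16 under sh50 and 3.70% ± 0.14 under sh52. In the ZHX2 experiment it made up 1.25% ± 0.072 in controls, 1.55% ± 0.031 under sh43 and 3.09% ± 0.26 under sh45. Its part in the member results was not tested. Counts on 30 ribosomal protein pseudogenes, which share sequence with the members and could take reads from them, made up 1.26% to 1.56% of the family's counts in all libraries.

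**Figure D1:**
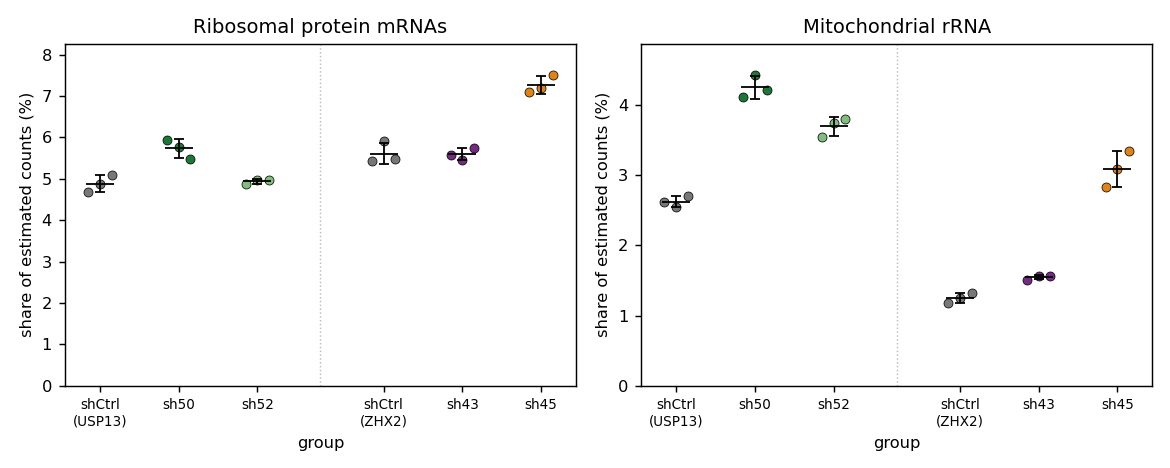
Share of all estimated counts (%) taken by ribosomal protein mRNAs (left) and by mitochondrial ribosomal RNA (right) in each of the 18 libraries, by group; points are libraries and bars show the mean ± SD. The sh45 libraries (7.10% to 7.51%) lie above all others on the left, and all 4 hairpin groups lie above their own control on the right.

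Under sh50, most ribosomal protein mRNAs of both subunits were higher than in the USP13 controls, and none was lower at the threshold. Of 80 tested members, 57 rose and 0 fell (edgeR, adjusted p under 0.05 over all genes tested), while 10.2% of the 13719 genes tested were called higher and 11.3% lower. The median change was 0.22 (log2), a fold of 1.16, beside 0.00 for all genes. The rise covered 35 of 46 large-subunit and 21 of 30 small-subunit genes that are not paralogs, with medians of 0.24 and 0.20. In 52 members every sh50 library was above every control library, a pattern that 18.6% of all genes showed, and 1 member (RPL26L1) lay below, against 19.6%. The changes were small, and the largest reached 0.46.

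RPL23, a large-subunit protein at the interface with the small subunit, stood at 552, 548 and 516 CPM in controls and at 747, 707 and 767 CPM under sh50. The groups did not overlap, and the rise was 0.46 ± 0.05 (SE, log2; edgeR adjusted p = 1.4e-07). RPL36A, which contacts the exit-site tRNA, went from 228, 236 and 258 CPM to 329.8, 325 and 316 CPM, without overlap. Its rise was 0.43 ± 0.06 (edgeR adjusted p = 2.3e-06). RPS28, on the small-subunit platform, stood at 332, 344 and 348 CPM in controls and at 470.4, 431 and 447 CPM under sh50, all higher than the controls. RPL38, linked in mouse to the translation of Hox mRNAs, and RPL17 rose by 0.38 and 0.35. RPL17 shares reads with a readthrough gene that joins it to its neighbour, so its value is uncertain.

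Of the 5S partners that bind MDM2, RPL5 stood at 579, 615 and 577 CPM in controls and at 759, 748 and 739 CPM under sh50. Its rise was 0.34 ± 0.05 (SE, log2; edgeR adjusted p = 4.7e-06). RPL11 stood at 527, 556 and 601 CPM in controls and at 646, 645 and 584 CPM under sh50, and these groups overlapped. Its call (0.16, edgeR adjusted p = 0.045) was lost without sh50 replicate 1 or 2 or control replicate 1 or 2, where the adjusted p over the 9 fits with a library left out ran from 0.0083 to 0.25. Among the stalk proteins that recruit elongation factors, RPLP1 rose by 0.25 ± 0.05 (edgeR adjusted p = 0.0008). RPLP0 changed by 0.17 with an adjusted p of 0.0087 by edgeR, lost without control replicate 1 (0.06). RPLP2 changed by 0.15 and did not pass (edgeR adjusted p = 0.069).

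The smallest called rises under sh50 included RPL11, RPLP0, RPS24, RPS15A and RPL30, at 0.16 to 0.18. Each of these calls depended on single libraries. RPS24 was lost without sh50 replicate 1, RPL30 without sh50 replicate 1 or control replicate 1, and RPS15A without either of these or control replicate 3, with edgeR adjusted p-values up to 0.059, 0.088 and 0.17. Of the 57 calls, 42 held whichever of the 9 libraries was left out.

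Under sh52, where the USP13 level differed from that under sh50 by -0.11 ± 0.11 (SE, log2; edgeR adjusted p = 0.61), members moved in both directions. Of 80 members, 14 rose and 11 fell, while 5.45% of all genes were called higher and 6.56% lower, and the median change was 0.03 beside 0.00 for all genes. The large subunit had 10 higher and 6 lower of 46, and the small subunit 3 higher and 5 lower of 30. These counts rested on few libraries. Leaving out 1 library at a time gave 8 to 17 members higher, with 9 and 8 without control replicates 1 and 2. It gave 3 to 15 lower, with 5 and 6 without sh52 replicates 1 and 3, and 4 and 3 without control replicates 2 and 3. Of the 25 calls, 11 held in every such fit.

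RPS28 and RPL38 had the largest rises under sh52. RPS28 stood at 498, 409 and 472 CPM, above all controls, a rise of 0.43 ± 0.06 (SE, log2; edgeR adjusted p = 1.7e-05). RPL38 stood at 182, 196 and 208 CPM in controls and at 286, 226 and 269 CPM under sh52, a rise of 0.41 ± 0.07 (edgeR adjusted p = 0.00018). RPS15, a protein of the small-subunit head, went from 979, 994 and 1025 CPM in controls to 1317, 1189 and 1194 CPM. The groups did not overlap, and it rose by 0.30. RPL28 and RPL36A rose by 0.29 and 0.28.

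Among the members that fell under sh52, RPL9 and RPL23A were lower in every library than in the controls. RPL9 stood at 349, 364 and 395 CPM in controls and at 285, 326 and 297 CPM under sh52, and fell by 0.29 ± 0.06 (SE, log2; edgeR adjusted p = 0.0029). RPL23A, a docking site at the tunnel exit, stood at 594, 620 and 663 CPM in controls and at 439, 573 and 533 CPM. It fell by 0.28 ± 0.07 (edgeR adjusted p = 0.009).

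RPL41, RPL39, RPL36 and RPL27 were also called lower, with groups that overlapped and wide spread within groups. RPL41, which encodes the shortest of the ribosomal proteins, stood at 275, 326 and 408 CPM in controls and at 187, 281 and 250.3 CPM under sh52. Its change was -0.49 ± 0.13 (SE, log2), and the call (edgeR adjusted p = 0.011) was lost without control replicate 3 (0.089). RPL39, which lines the exit tunnel, stood at 173, 213 and 232 CPM in controls and at 127, 179 and 175 CPM. The change of RPL39 was -0.36, and its call was lost without sh52 replicate 1 or control replicate 2 or 3, with edgeR adjusted p-values up to 0.14. The calls of RPL36 and RPL27 were lost without sh52 replicate 1 or 3 or control replicate 2 or 3, with edgeR adjusted p-values up to 0.18 and 0.12.

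The USP13 hairpins differed from each other in this family. Set directly against sh50, sh52 had 0 members higher and 50 lower, while 5.47% of all genes were called higher and 4.74% lower. The median difference was -0.19 (log2), beside 0.00 for all genes, and in 55 members every sh52 library lay below every sh50 library, against 13.1% of all genes. Of the 80 members, 34 rose under sh50, did not pass under sh52 and differed between the hairpins, a pattern shown by 2.27% of all genes. Both hairpins were set against the same control libraries. The difference held whichever library was left out in 23 of the 34, and in 34 of all 50 members called lower. A further 14 rose under both hairpins, of which RPL19 and RPL23 also differed between them. The other 12 were RPL13A, RPL17, RPL22L1, RPL28, RPL34, RPL35, RPL36A, RPL37, RPL38, RPS15, RPS26 and RPS28. Of the 14 rises under sh52, 8 held whichever of the 9 libraries was left out, and that of RPL19 was among those lost (edgeR adjusted p up to 0.18). Another 11, including RPL9 and RPL23A, did not pass under sh50, were lower under sh52 and differed between the hairpins.

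RPLP1 showed the difference between the USP13 hairpins without overlap. It stood at 1403, 1360 and 1251 CPM under sh50 and at 961, 1065 and 1018 CPM under sh52, with controls at 1065, 1099 and 1204 CPM. The hairpins differed by -0.40 ± 0.05 (SE, log2; edgeR adjusted p = 1e-05). RPL9 (-0.40) and RPL36 (-0.50) differed in every library as well. RPS25, needed by some viral internal ribosome entry sites, differed by -0.49 ± 0.11 (edgeR adjusted p = 0.004), although its highest sh52 library (249 CPM) exceeded its lowest sh50 library (246 CPM). RPL41 and RPL39, at -0.50 and -0.39, lost their calls without sh50 replicate 1 or 2, and RPL39 also without sh52 replicate 1, with edgeR adjusted p-values up to 0.081 and 0.14.

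**Figure D2:**
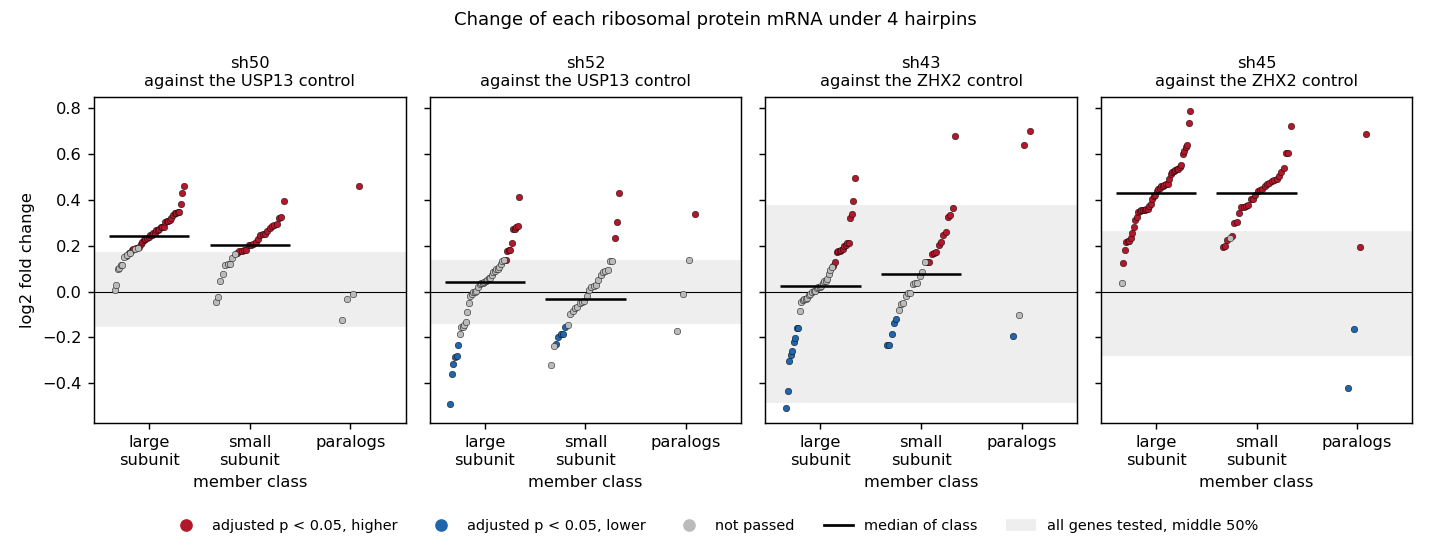
Log2 fold change of each of the 80 tested members under each hairpin against its own control, split into large-subunit genes, small-subunit genes and paralogs. Colour gives the edgeR call and the grey band the middle 50% of all genes tested. Horizontal lines give the medians of the large-subunit and small-subunit genes, and none is drawn for the paralogs. Points lie mostly above 0 under sh50 (57 higher, 0 lower) and sh45 (76 higher, 2 lower), and on both sides of 0 under sh52 and sh43.

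Under sh43, the hairpin with the lower ZHX2 level, ribosomal protein mRNAs moved in both directions. Of 80 members, 30 rose and 15 fell, while 33.5% of the 13607 genes tested were called higher and 35.2% lower. The median change was 0.04, beside -0.02 for all genes. The large subunit had 15 higher and 9 lower of 46, and the small subunit 13 higher and 5 lower of 30. In all, 45 of 80 members (56.2%) were called, against 68.8% of all genes. Every sh43 library lay above every control library in 26 members and below in 15, against 34.4% and 35.9% of all genes. With a trend of the counts with transcript length, fitted on genes outside the family, removed, 25 members rose and 28 fell, and the median was -0.02.

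RPL10A and RPL12 had the largest falls under sh43. RPL10A, a protein of the L1 stalk, stood at 409.5, 457 and 445 CPM in controls and at 295, 310.3 and 319 CPM under sh43. It fell by 0.51 ± 0.05 (SE, log2; edgeR adjusted p = 3.1e-10), with no overlap. RPL12, at the base of the P-stalk, stood at 907, 972 and 870 CPM in controls and at 659, 673 and 704 CPM under sh43. It fell by 0.43 ± 0.04 (edgeR adjusted p = 1.3e-09). RPL3, next to the peptidyl transferase centre, RPL13A, RPL15 and RPS25 fell by 0.30, 0.28, 0.26 and 0.24, each without overlap.

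The largest rises under sh43 included paralogs. RPL22L1 and RPL26L1 rose by 0.70 and 0.64. RPS26, which lines the mRNA exit channel, stood at 95.4, 108 and 102 CPM in controls and at 159.6, 158 and 171 CPM under sh43. It rose by 0.68 ± 0.06 (SE, log2; edgeR adjusted p = 2.3e-10), with no overlap. RPL38 and RPL35, the latter an anchor at the tunnel exit, rose by 0.50 and 0.39. RPSA, which stood at 1119, 1203 and 1098 CPM in controls and at 1431, 1443 and 1529 CPM under sh43, rose by 0.36 ± 0.04 (edgeR adjusted p = 2.3e-08).

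Under sh45, nearly the whole family was higher than in the same controls. Of 80 members, 76 rose and 2 fell, while 25.3% of all genes were called higher and 27.3% lower, and the median change was 0.42 (log2), a fold of 1.34, beside -0.01 for all genes. The rise covered 45 of 46 large-subunit and 29 of 30 small-subunit genes that are not paralogs, with a median of 0.43 in each. In 75 members every sh45 library was above every control library, against 27.9% of all genes. RPL7L1 and RPS27L were the members that fell, and RPL10A and RPS29 did not pass in either direction.

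Short transcripts outside the family were also higher under sh45. Of 709 other genes with a mean transcript length under 1000 bases, 314 rose and 63 fell, with a median of 0.23, and among the 116 of them at 100 CPM or more, 80 rose and 12 fell, with a median of 0.28. With the length trend of genes outside the family removed, 62 members rose and 4 fell, and the median fell to 0.18. The same removal left sh50 at 54 higher, 0 lower and a median of 0.18. Of the 78 calls under sh45, 64 were made in the same direction with and without that trend. The part of transcript length in the rise of single genes was not tested further.

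RPL36A had the largest rise under sh45. It stood at 252.5, 244 and 240.2 CPM in controls and at 395, 446 and 428 CPM under sh45, a rise of 0.78 ± 0.05 (SE, log2; edgeR adjusted p = 1e-12), and of 0.58 with the length trend removed. RPL28, a large-subunit protein found in eukaryotes, stood at 490.1, 528 and 470.2 CPM in controls and at 766, 836 and 869 CPM under sh45. Its rise was 0.73 ± 0.05 (edgeR adjusted p = 8.1e-13), and 0.72 with the length trend removed. The length used for that trend was 2261.5 bases for RPL28, a mean over 5 listed transcripts, and 881 bases for RPL36A. In both genes every sh45 library was above every other library of the experiment.

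RPS18, at the small-subunit head, stood at 839, 925 and 832 CPM in controls and at 1328, 1473 and 1481 CPM under sh45. It rose by 0.72 ± 0.05 (SE, log2; edgeR adjusted p = 1e-12), and by 0.44 with the length trend removed. RPL18 and RPL36 rose by 0.64 and 0.63, and by 0.44 and 0.32 with that trend removed. The 3 stalk proteins all rose, RPLP0 by 0.31, RPLP1 by 0.45 and RPLP2 by 0.46. RPL5 rose by 0.28 and RPL11 by 0.37, and for RPL5 the value was 0.11 with the length trend removed.

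The smallest changes called higher under sh45 were those of RPL14 (0.13), RPL7 (0.18), RPL26L1 (0.20) and RPS12 (0.20). With the length trend of genes outside the family removed, all 4 turned negative, to -0.08, -0.03, -0.04 and -0.10. Of these, RPS12 then passed the threshold as lower (edgeR adjusted p = 0.025), and RPL14, RPL7 and RPL26L1 did not pass. RPL14 was also lost without sh45 replicate 2 or 3 or control replicate 3, with edgeR adjusted p-values up to 0.17. RPL26L1 was lost without any 1 of the sh45 libraries or control replicate 3, with values up to 0.19. RPS29, the member with the widest spread in this experiment, stood at 95.7, 134 and 119 CPM in controls and at 142, 110.5 and 157 CPM under sh45, and the groups overlapped (0.23 ± 0.13, SE; edgeR adjusted p = 0.13).

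**Figure D3:**
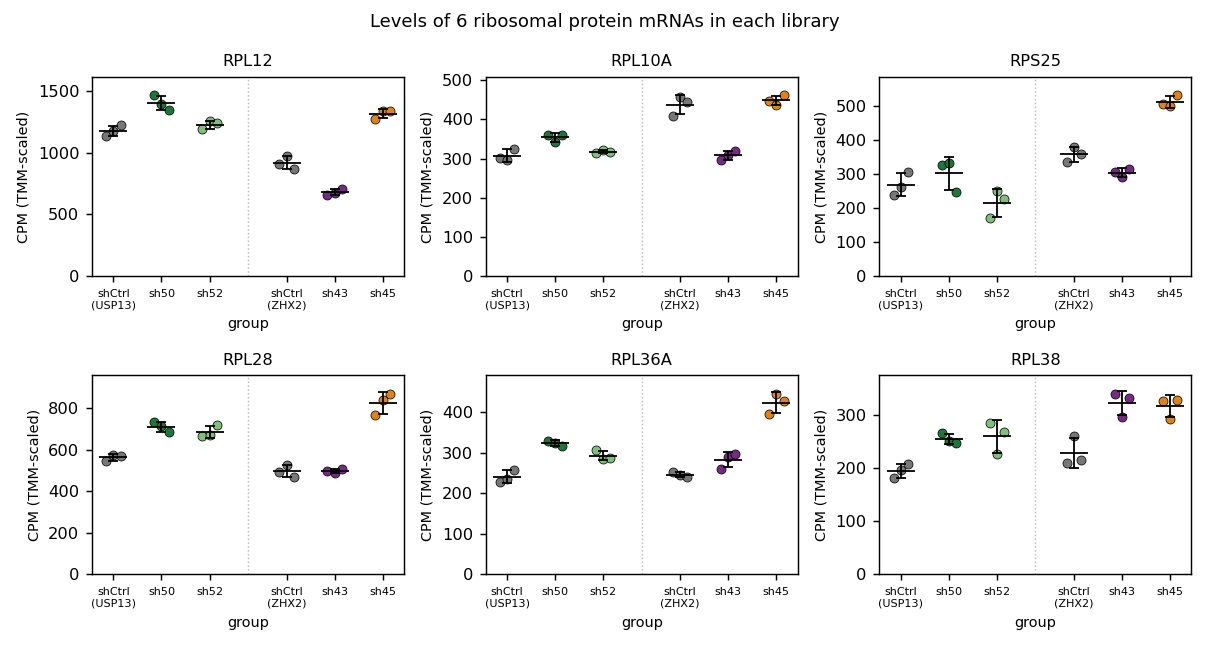
CPM of RPL12, RPL10A, RPS25, RPL28, RPL36A and RPL38 in each of the 18 libraries, by group; points are libraries and bars show the mean ± SD, on axes that start at 0. RPL12 lies lower under sh43 (659 to 704 CPM) and higher under sh45 (1270 to 1336 CPM) than in the ZHX2 controls.

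Set directly against sh43, sh45 had 68 members higher and 3 lower, while 34.2% of all genes were called higher and 32.7% lower, and the median difference was 0.37 (log2) beside 0.02 for all genes. The 3 lower members were RPL26L1, RPL7L1 and RPS26. In 13 members the hairpins moved the mRNA in opposite directions: RPL10, RPL12, RPL13A, RPL15, RPL3, RPL31, RPL39, RPLP0, RPS20, RPS25, RPS3A, RPS6 and RPS9 fell under sh43 and rose under sh45. These were 16.2% of the members tested, and 4.37% of all genes were called in the same pattern, with both hairpins set against the same controls. As 76 of the 80 members rose under sh45, most of the 15 that fell under sh43 had this pattern. Falls under sh43 were called in 18.75% of members and 35.2% of all genes. The sh43 call of RPL31 was lost without control replicate 2, and that of RPS9 without sh43 replicate 1 or 2, sh45 replicate 1 or 3, or control replicate 1 or 2 (edgeR adjusted p up to 0.34 and 0.5). Another 33 did not pass under sh43, rose under sh45 and differed between the hairpins, and 30 rose under both. Of those 30, 21 were higher under sh45 than under sh43, and RPL26L1 and RPS26 were lower. With the length trend of genes outside the family removed, 52 members were higher and 7 lower, with a median of 0.26.

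RPL12 had the largest difference between the ZHX2 hairpins. It stood at 659, 673 and 704 CPM under sh43 and at 1270, 1336 and 1336 CPM under sh45, with controls between them, a difference of 0.95 ± 0.04 (SE, log2; edgeR adjusted p = 3.3e-16). RPS25 stood at 334, 379 and 359.9 CPM in controls, at 305, 290.4 and 316 CPM under sh43 and at 505.5, 499.8 and 532 CPM under sh45. The 3 groups did not overlap, and the difference was 0.75 ± 0.05 (edgeR adjusted p = 2.9e-13). RPL28, RPS18 and RPL29 had differences of 0.73, 0.65 and 0.65. Of these, RPL28 stood at 496, 489 and 506 CPM under sh43, inside its control range. With the length trend of genes outside the family removed, the difference was 0.80 for RPL12 and 0.55 for RPS25, and it turned negative for RPL35 (-0.06 from 0.16) and RPS28 (-0.04 from 0.21).

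The paralogs are described beside the genes they resemble. RPL22, whose protein binds RNA outside the ribosome and is not essential for translation, stood at 258, 290.3 and 309.6 CPM in the USP13 controls and at 363.5, 369 and 341 CPM under sh50, and it rose by 0.32. It did not pass under sh52 (0.09) or sh43 (-0.02), and rose by 0.22 under sh45. Its paralog RPL22L1, which carries a tract at its start like RPL22, was at a lower level in every library. RPL22L1 stood at 24.5, 26.4 and 30.6 CPM in the USP13 controls, at 38.4, 35.8 and 38.1 CPM under sh50 and at 39.4, 31.3 and 32.1 CPM under sh52. In the ZHX2 experiment it stood at 24.1, 20.5 and 21.0 CPM in controls, at 34.8, 34.6 and 37.4 CPM under sh43 and at 35.3, 36.6 and 33.8 CPM under sh45.

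Each of the 4 hairpin groups of RPL22L1 lay above its own controls. The rises were 0.46 ± 0.10 under sh50, 0.34 ± 0.10 under sh52, 0.70 ± 0.08 under sh43 and 0.69 ± 0.08 under sh45 (SE, log2), with edgeR adjusted p-values of 0.0013, 0.029, 3.6e-08 and 1.1e-07. The sh52 call was lost without sh52 replicate 1 or control replicate 1 or 2, with an adjusted p of up to 0.17 by edgeR. Neither sh52 and sh50 (-0.13 ± 0.10) nor sh45 and sh43 (-0.01 ± 0.08) differed at the threshold for this gene.

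RPL26L1 stood at 29.8, 29.7 and 26.2 CPM in the ZHX2 controls and at 46.7, 43.4 and 43.3 CPM under sh43. It rose by 0.64 ± 0.08 (SE, log2; edgeR adjusted p = 3.4e-08), while RPL26 changed by 0.02 and did not pass. Under sh45 the order was the other way: RPL26 rose by 0.44, and RPL26L1 stood at 32.6, 32.0 and 33.3 CPM. Under sh50 RPL26 rose by 0.27, and RPL26L1 changed by -0.13 without passing.

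RPL7L1 stood at 108, 112 and 115 CPM in the ZHX2 controls, at 105, 99.8 and 108 CPM under sh43 and at 82.6, 88.3 and 80.1 CPM under sh45. It fell by 0.42 ± 0.06 under sh45 (SE, log2; edgeR adjusted p = 1.1e-06) and did not pass under sh43 (-0.10). The sh45 libraries were all below both other groups, and the fall was 0.35 with the length trend removed. RPS27L, which p53 induces, stood at 112, 125 and 126 CPM in the ZHX2 controls and at 109, 105.5 and 103 CPM under sh43, where it fell by 0.19 ± 0.06 (edgeR adjusted p = 0.0063). Under sh45 it changed by -0.16 with overlapping groups, and the call (edgeR adjusted p = 0.025) was lost without sh45 replicate 1 or 3 or control replicate 2 or 3 (up to 0.15). RPS27 stood at 427, 565 and 509.6 CPM in the ZHX2 controls and at 648, 615 and 675 CPM under sh45, a rise of 0.37. Neither RPS27 nor RPS27L passed under sh50 or sh52.

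**Figure D4:**
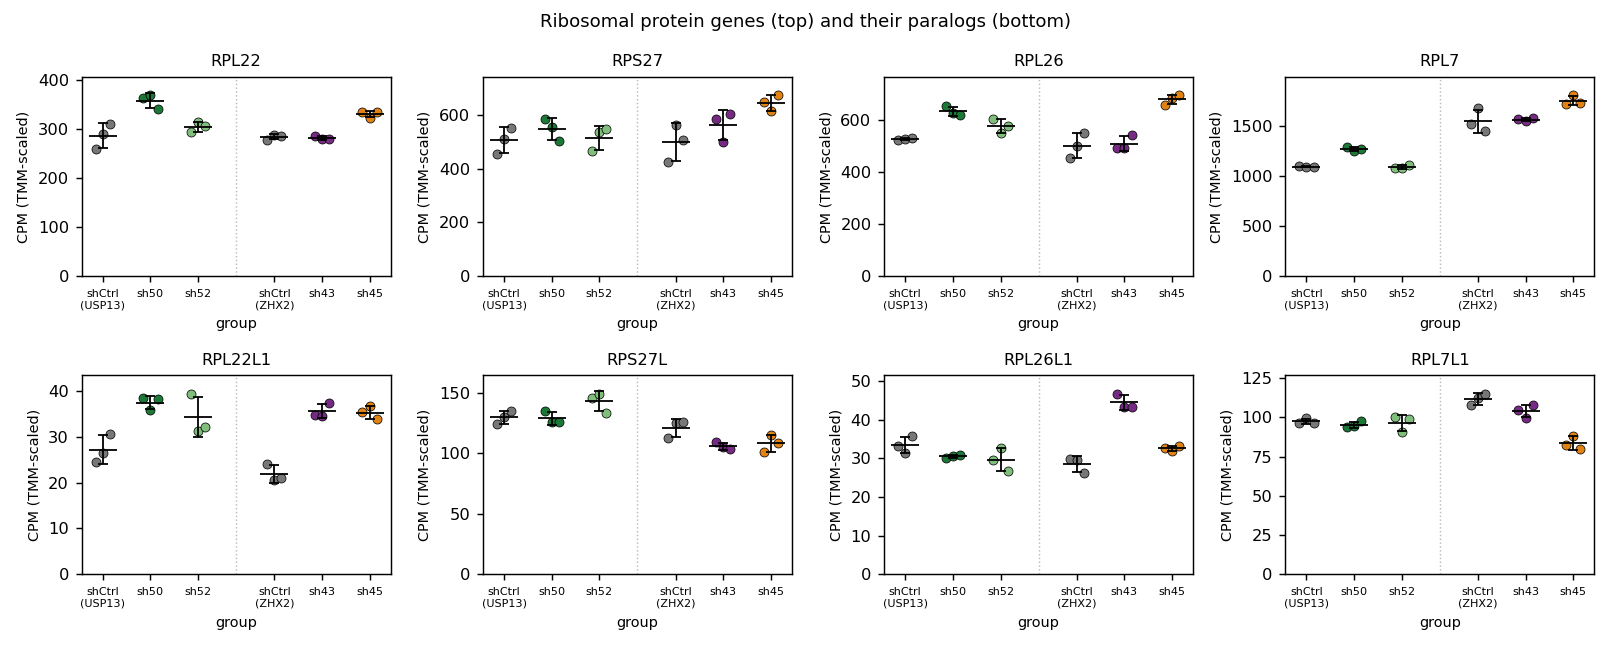
CPM of 4 ribosomal protein genes (top) and their paralogs (bottom) in each of the 18 libraries, by group; points are libraries and bars show the mean ± SD, on axes that start at 0. RPL22L1 lies above its own controls under all 4 hairpins, and RPL7L1 is lowest under sh45 (80.1 to 88.3 CPM).

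Other genes of the translation machinery were set beside the members. Over all genes tested, 10.2% were called higher and 11.3% lower under sh50, and 5.45% and 6.56% under sh52. Under sh43 these shares were 33.5% and 35.2%, and under sh45 25.3% and 27.3%. They were 5.47% and 4.74% for sh52 against sh50, and 34.2% and 32.7% for sh45 against sh43. Counts in every list below are to be read beside these shares. The list of other TOP mRNAs, which holds elongation factors and other genes with a pyrimidine start, had 10 higher and 0 lower of 18 under sh50, 2 and 1 under sh52, 6 and 9 under sh43, and 13 and 0 under sh45. This list shares genes with the elongation factor and EIF3 lists. It also holds ribosomal proteins that the symbol rule leaves out, such as FAU, so the lists are not separate sets of genes. Its medians were 0.16, -0.04, -0.09 and 0.19. Between sh52 and sh50 it had 0 higher and 9 lower, and between sh45 and sh43 15 higher and 1 lower. EEF1A1, which brings aminoacyl-tRNA to the ribosome, rose by 0.15 under sh50 and fell by 0.33 under sh43. EEF2, the translocase, rose by 0.25 under sh45. Its change of 0.16 under sh50 lost its call without sh50 replicate 2 or control replicate 2 (edgeR adjusted p up to 0.13). EEF1G, a subunit of the exchange factor for EEF1A1, fell by 0.31 under sh52.

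The snoRNA host genes, noncoding RNAs with pyrimidine starts whose introns hold small nucleolar RNAs, had 8 higher and 0 lower of 13 under sh50, and 11 and 0 under sh45. Under sh52 they had 2 and 1, and under sh43 6 and 3. Their median was 0.48 under sh45 and 0.24 with the length trend of genes outside the family removed, and 0.04 and -0.05 under sh43. GAS5, a host of several such RNAs, rose from a mean of 43.3 to 59.1 CPM under sh50 (0.45 ± 0.10, SE; edgeR adjusted p = 0.0011). Under sh45 it rose from 48.6 to 112 CPM, by 1.21 ± 0.06 (edgeR adjusted p = 3.3e-15). ZFAS1 and SNHG6 rose by 0.76 and 0.79 under sh45. EPB41L4A-AS1, which overlaps its neighbour and whose reads cannot be told apart from it without strand, fell by 0.47 under sh43. Its change of 0.52 under sh50 lost its call without sh50 replicate 2 (edgeR adjusted p = 0.064).

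The factors that build ribosomes were counted in the same fits. Under sh43, where 30 members rose and 15 fell, 27 of 28 ribosome biogenesis genes rose and 0 fell, with a median of 0.69. NCL, the nucleolar protein nucleolin, rose from a mean of 538 to 1016 CPM (0.92 ± 0.04, SE, log2; edgeR adjusted p = 4.7e-17), and NOLC1 and PES1, which act in snoRNP and 60S assembly, rose by 0.94 and 0.97. Under sh45, where 76 members rose, 10 biogenesis genes rose and 10 fell, with a median of 0.00. NOLC1 fell by 0.77, whereas FBL, the methyltransferase of box C/D snoRNPs, rose by 0.53. Between sh45 and sh43 the list had 0 higher and 23 lower (median -0.74), with NOLC1 lower by a log2 difference of -1.70 and NCL by -1.23. In the USP13 experiment 8 biogenesis genes rose and 0 fell under sh50, and 3 rose and 2 fell under sh52.

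The mitochondrial ribosomal proteins, which are made in the cytosol and built into the ribosome of mitochondria, were counted as a set of 76 genes. Of these, 11 rose and 1 fell under sh50, 6 and 2 under sh52, 56 and 2 under sh43, and 27 and 14 under sh45, with medians of 0.02, 0.04, 0.33 and 0.07. The direction under sh45 turned with the length trend of genes outside the family removed, to 15 higher and 23 lower with a median of -0.07, while sh43 had 50 higher and 4 lower (0.27). Between sh45 and sh43 the mitochondrial set had 11 higher and 43 lower (median -0.28), where the cytosolic set had 68 higher and 3 lower (median 0.37). No test of one list against another was made.

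**Figure D5:**
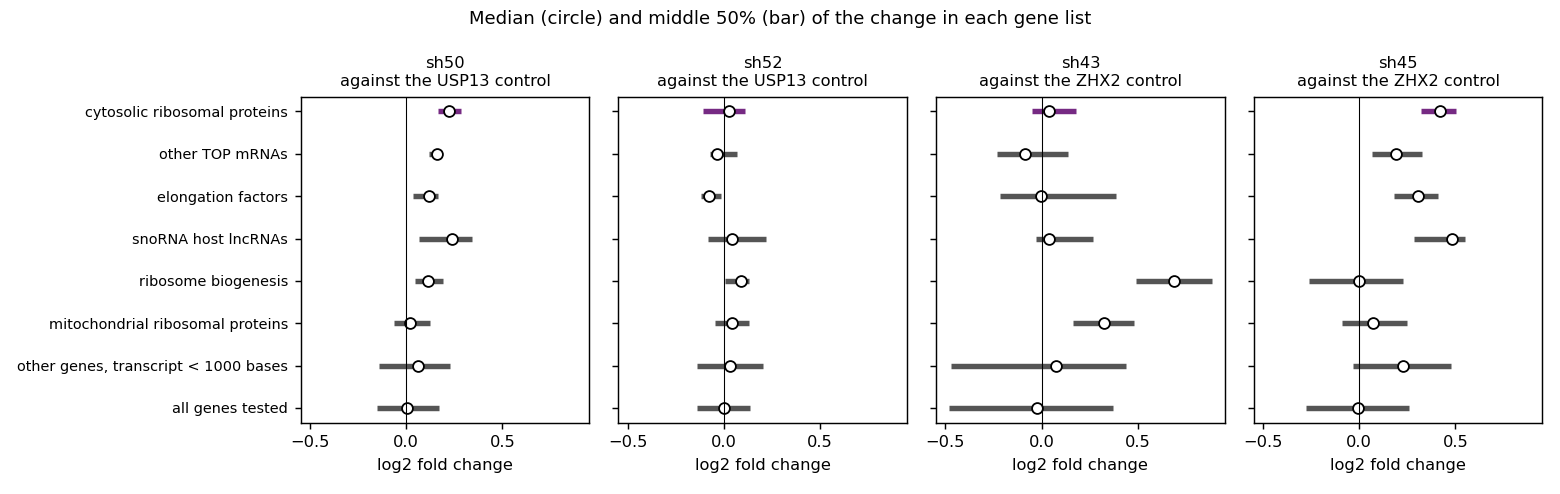
Median log2 fold change (circle) and middle 50% of genes (bar) for the cytosolic ribosomal proteins, 6 other gene lists and all genes tested, under each hairpin against its own control. Ribosome biogenesis genes and mitochondrial ribosomal proteins have their highest medians under sh43 (0.69 and 0.33), and cytosolic ribosomal proteins under sh45 (0.42).

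Within the family, over the 80 members, Spearman's rho between the log2 change and transcript length was 0.11 under sh50, 0.11 under sh52, -0.28 under sh43 and -0.15 under sh45. Over all genes tested it was -0.08, -0.03, -0.10 and -0.20. The changes of the members under sh50 and under sh45, which share no libraries, had Pearson's r = 0.46 and Spearman's rho = 0.34 over 80 genes. The corresponding values were 0.11 and 0.17 for sh50 and sh43, 0.20 and 0.13 for sh52 and sh43, and 0.13 and 0.17 for sh52 and sh45. These are descriptions across genes that share libraries and are not independent replicates.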

How the data were processed

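Per the file headers, the authors deposited 1 Salmon table per library with estimated counts, TPM, length and effective length for each RefSeq transcript. Salmon 0.11.3 and build hg19 are given in the submitters' processing notes, which also list STAR 2.5.2b, DESeq2 1.14.1 and cutadapt 1.12 without their roles. The deposited estimated counts were already whole numbers. Here they were summed over 60422 transcripts to 27105 genes; 415 transcripts without a gene name (0.0799% to 0.1148% of counts) were left out. TPM values from the authors were used for levels between genes.

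Each experiment (9 libraries, 6 groups of 3 in all) was fitted with edgeR 4.0.16 (R 4.3.3): filterByExpr, TMM scaling, quasi-likelihood F-test, Benjamini-Hochberg adjustment over all genes tested, threshold 0.05. SEs are the log2 change divided by the root of F. The pipeline was tested on simulated data. Alternatives included DESeq2 1.42.0, other scaling, no filter, length corrections and left-out libraries. Named members are the 6 highest and 6 lowest called per contrast, paralog pairs, stalk and 5S genes, the 5 highest and 5 lowest by TPM, those not tested, and from other lists the 3 smallest adjusted p per contrast. Some results are not reported here. A few further members are named from counts, chosen after their values were seen. Members and lists were chosen with earlier results of these data known.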

Additional observations from a re-analysis of the deposited data

Results flagged for a closer look

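In 9 named members the ZHX2 hairpins moved the mRNA in opposite directions, with a fall under sh43, a rise under sh45 and a direct difference past the threshold by edgeR. They are among 13 of the 80 members (16.2%) with this pattern, which 4.37% of all genes showed. With 76 of 80 members higher under sh45, that excess follows largely from the sh45 rise. Only 18.75% of members fell under sh43, against 35.2% of all genes. The log2 differences of sh45 from sh43 were 0.95 for RPL12, 0.75 for RPS25, 0.63 for RPL39, 0.60 for RPL13A, 0.55 for RPL10, 0.53 for RPLP0, 0.52 for RPL3, 0.48 for RPL15 and 0.42 for RPS9. In all of these except RPS9 each hairpin group lay outside the control range, and RPS9 overlapped its controls under sh43 (583, 556 and 602 CPM against 637, 682 and 571 CPM), and its sh43 call was lost without sh43 replicate 1 or 2, sh45 replicate 1 or 3, or control replicate 1 or 2 (edgeR adjusted p up to 0.5). The ZHX2 level itself differed between these hairpins, with means of 40.2 CPM in sh43 and 84.2 CPM in sh45. The part of the knockdown level in these differences was not tested.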

How the results depend on the processing

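The counts of members higher under sh50, sh43, sh45 and sh45 against sh43, and lower between sh52 and sh50, stayed within 1.5 times of the reported ones under all alternatives run. Of the genes named, those that turned sign did so under corrections for transcript length: a trend over all genes was removed, or a trend over genes outside the family, the second chosen after seeing the data. In that order they gave medians of -0.026 and -0.024 under sh43, 0.16 and 0.18 under sh45, and 0.24 and 0.26 for sh45 against sh43. Lower counts became 18 and 18 under sh52, 28 and 28 under sh43, 5 and 4 under sh45, and 11 and 7 between the ZHX2 hairpins. For sh52 against sh50 they gave 1 and 1 higher, and the first a median of -0.145. Under sh45 they turned RPL14 to -0.088 and -0.075, RPL26L1 to -0.054 and -0.036, RPL7 to -0.041 and -0.026 and RPS12 to -0.132 and -0.101. Of these, RPS12 passed as lower under both corrections (edgeR adjusted p = 0.0034 and 0.025). For sh45 against sh43 they turned RPL35 to -0.089 and -0.060, RPS12 to -0.122 and -0.094, RPS27 to -0.091 and -0.056 and RPS28 to -0.070 and -0.037. The first also turned RPS27 under sh45 (-0.026) and, between these hairpins, RPL37A (-0.014) and RPLP2 (-0.109). For sh45 against sh43, RPS12 passed as lower under both corrections (edgeR adjusted p = 0.0049 and 0.028). RPL35, RPS27 and RPLP2 passed as lower there under the first (edgeR adjusted p = 0.021, 0.042 and 0.023). Without the filter 17 were lower under sh52. The medians near 0 under sh43 and sh52 also turned under other alternatives. Upper-quartile factors gave medians of -0.007 under sh43 and 0.444 for sh45 against sh43, with 1 lower under sh45. Effective-length offsets gave medians of -0.011 under sh52 and -0.249 for sh52 against sh50. Leaving out libraries gave, under sh52, 8 to 17 higher, 3 to 15 lower and medians of -0.009 to 0.069. It gave medians of 0.015 to 0.099 under sh43 and 0.381 to 0.474 under sh45, with 1 to 2 lower there. The causes of these shifts were not tested.

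Libraries with the same replicate number did not deviate together (r from -0.104 to 0.057 over 18 pairs), so the number was not taken to pair samples. With the replicate number as a block, 56 members were higher under sh50, 11 higher and 11 lower under sh52, 30 higher and 14 lower under sh43 and 76 higher and 2 lower under sh45.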

Other observations

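Of the ribosomal proteins that the symbol rule leaves out, FAU (RPS30 fused to a ubiquitin-like protein) rose under all 4 hairpins, by 0.30 under sh50, 0.24 under sh52, 0.46 under sh43 and 0.59 under sh45 (edgeR, log2). The sh52 call was lost without control replicate 1 (edgeR adjusted p = 0.06). RACK1, a scaffold on the small subunit, had a mean of 1282 CPM in the ZHX2 controls. It fell to 1109 CPM with sh43, by 0.21, and rose to 1684 CPM with sh45, by 0.39.

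Genes of the mTORC1 pathway and MYC, 12 in all, had 3 higher and 0 lower under sh50, 1 and 2 under sh52, 6 and 4 under sh43, and 4 and 3 under sh45. In that order, 10.2% and 11.3%, 5.45% and 6.56%, 33.5% and 35.2%, and 25.3% and 27.3% of all genes were called. For this list the shares were 50% and 33.3% under sh43, and 33.3% and 25% under sh45. MYC, a transcriptional activator of ribosomal genes, fell by 0.40 under sh45 (mean 159 to 121 CPM). Its change of 0.17 under sh50 (131 to 147 CPM) lost its call without sh50 replicate 1 or 2 or control replicate 1 or 2 (edgeR adjusted p up to 0.2). EIF4EBP1, a repressor of cap-dependent translation, rose by 0.98 under sh43 and by 0.79 under sh45, and EIF4EBP2 fell by 0.87 under sh45.

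The subunits of EIF3, the factor that loads mRNA onto the small subunit, had 3 higher and 1 lower of 13 under sh50, 0 and 1 under sh52, 8 and 3 under sh43, and 7 and 3 under sh45. With the length trend of genes outside the family removed, sh45 had 3 higher and 3 lower, and the median went from 0.14 to 0.00. EIF3B rose by 0.69 under sh43 and fell by 0.24 under sh45, while EIF3L fell by 0.51 under sh43. The 8 elongation factors counted as a list had 4 higher and 0 lower under sh50, 0 and 1 under sh52, 4 and 4 under sh43, and 6 and 0 under sh45. Beside both lists, 33.5% of all genes were called higher and 35.2% lower under sh43, and 25.3% and 27.3% under sh45. Under sh50 these shares were 10.2% and 11.3%, and under sh52 5.45% and 6.56%. EIF5A rose by 1.02 under sh43 (mean 399 to 807 CPM) and by 0.41 under sh45.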
